A study of Mus musculus with 5 samples.

Results

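The kidney epithelium of mice with aristolochic acid injury was compared with that of a control kidney. Epithelial cells were selected on their own counts. A cell barcode was taken when at most 30% of its UMIs (unique molecular identifiers, each counting a captured RNA molecule once) came from mitochondrially encoded genes, at least 200 genes were detected, at least 1 UMI of Cdh16 or Epcam was present, Ptprc, the Cd3 chains and Pecam1 were at 0, and the C1q genes had at most 2 UMIs. Cdh16 encodes kidney cadherin and Epcam an epithelial adhesion molecule, whereas Ptprc, Cd3, C1q and Pecam1 mark leukocytes, T lymphocytes, macrophages and endothelium. These rules left 4521 epithelial cells of the 31223 kept barcodes in the 3 libraries, and of 72896 barcodes in the whole series. There were 3040 in the control, 824 in AKI 1 and 657 in AKI 2.

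All mice were male C57BL/6 animals of 8 to 10 weeks. The AKI libraries were made at week 2, after aristolochic acid I (AAI) had been injected into the peritoneum at 3 mg/kg every 3 days. The study places the control at baseline, taken here as week 0. It also describes vehicle injections for control mice at the times of AAI, so the time of the control library is not clear. The model acts on the whole animal, and the labels do not say whether a library is 1 mouse or a pool. The control has no replicate and no test was run, since with 1 library against 2 the smallest 1-sided exact permutation p is 0.333. Values are given per library, and a gene is called higher or lower only when it differed at least 2-fold in the same direction in AKI 1 and in AKI 2. Both folds share the control.

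AAI is a plant nitrophenanthrene acid that proximal tubule cells take up through organic anion transporters and reduce to a metabolite that binds DNA. The nephron is lined by a series of epithelia. The proximal tubule (PT) reabsorbs most of the filtrate, the thick ascending limb (TAL) and the distal convoluted tubule (DCT) reabsorb salt, the connecting tubule (CNT) handles calcium, and the collecting duct holds principal cells (PC) for water and sodium and intercalated cells (IC) for acid and base. Injured tubule cells are known to make osteopontin (Spp1), lipocalin 2 (Lcn2) and kidney injury molecule 1 (Havcr1), and to lose products of the differentiated segments.

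The epithelial pools held 31945936 UMIs in the control, 10220747 in AKI 1 and 8445204 in AKI 2, with medians of 8399, 6308 and 8517 UMIs per cell. Levels below are UMIs per 10000 UMIs of a library's pool, and bracketed intervals are exact 95% intervals that cover counting error only, not differences between mice. Epithelial cells made up 33.2% of the kept barcodes of the control, 7.36% in AKI 1 and 6.05% in AKI 2. Before the other markers were applied, barcodes with Cdh16 or Epcam made up 54.3%, 30.8% and 26.2%. Those also without Ptprc made up 41.0%, 11.3% and 9.87%. The rule thus removed a larger part of such barcodes in AKI, and the shares of epithelial cells depend on it. The filters on mitochondrial UMIs and on genes detected together removed 38.7% of the barcodes of the control against 11.1% and 12.7%. Mitochondrial UMIs were 16.6%, 11.1% and 13% of the pools. The rule's own markers, given as a description, were at 10.4, 8.41 and 7.72 for Cdh16 and at 5.41, 5.66 and 5.14 for Epcam. Markers of other cells were present and moved between libraries. At least 5 UMIs of macrophage markers were held by 10.9% of the epithelial cells of the control, 33.5% of AKI 1 and 50.4% of AKI 2, and at least 5 of T and NK cell markers by 0.757%, 5.22% and 5.02%, and their part in the results was not tested. The sum of 12 T and NK cell markers was 0.411 in the control and 1.57 and 1.59 in AKI, that of 10 macrophage markers was 2.73, 6.45 and 7.99, most of it Apoe, and Chil3 of that list was at 0 in the control and in AKI 2. The sum of 6 endothelial markers was 0.655, 0.293 and 0.281, and that of 7 fibroblast and pericyte markers was 1.89, 0.710 and 0.539. B cell markers summed to 0.439, 0.233 and 0.0853. Free RNA was gauged on T lymphocyte barcodes without Cdh16 or Epcam, 794 in the control, 5163 in AKI 1 and 5330 in AKI 2. Of the epithelial barcodes of the control 69 also occurred in another library of the series, as did 8 of AKI 1 and 5 of AKI 2.

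Of 10498 genes compared, 449 were at least 2-fold higher in both AKI libraries, which is 4.28%, and 237 were at least 2-fold lower, which is 2.26%. The median log2 fold change over all genes compared was -0.02 in AKI 1 and -0.06 in AKI 2. The share of all genes lying on the same side of the control in both is not given. Since both folds share the control, counts of genes on the same side in both lack that reference. The AKI libraries differed from each other by a median of 0.15 on the log2 scale, and by 2-fold or more for 145 genes (1.38%). For 676 of the 686 called genes the smaller of the folds was larger than the difference between the AKI libraries. Called genes passed 2-fold in both by rule, so this count was largely set in advance. The control does not enter that difference, which therefore does not measure variation between controls. Just inside the limit lay Lmna, at 2.44-fold and 2.03-fold, and just outside it Gpx1, at 1.99-fold and 2.55-fold.

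**Figure D1:**
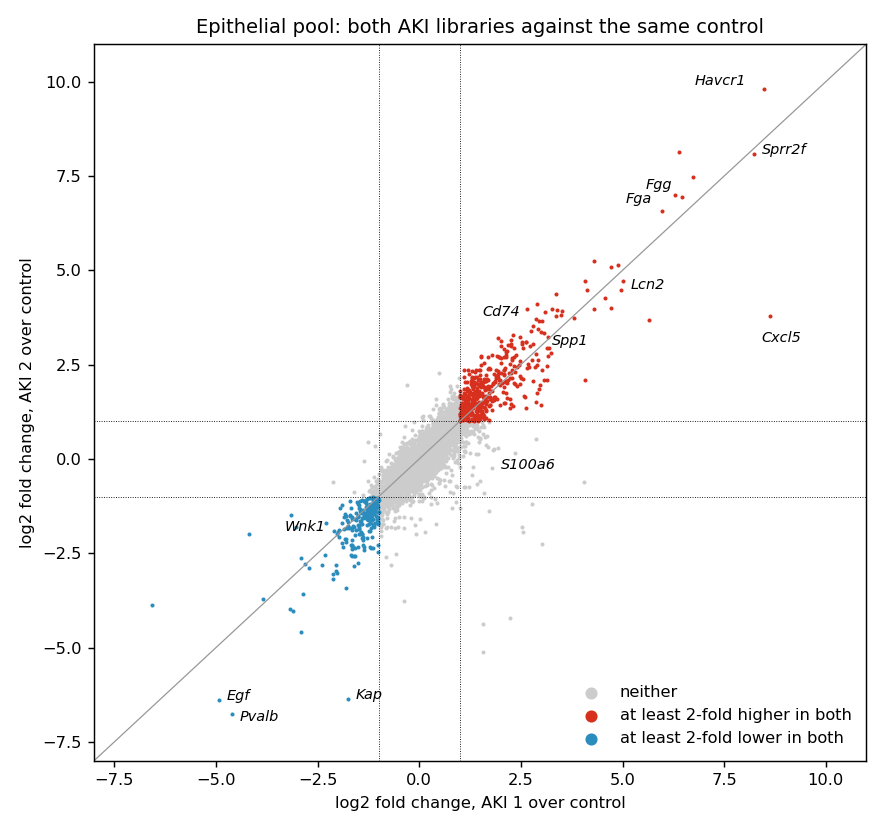
Each point is 1 of the 10498 genes compared, with its log2 fold change over the control in AKI 1 (x axis) and AKI 2 (y axis); red points are at least 2-fold higher and blue points at least 2-fold lower in both, and dotted lines mark 2-fold. Spp1, Lcn2 and the fibrinogen genes lie near the diagonal, whereas Cxcl5, Kap and S100a6 differ between the AKI libraries.

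Promoter sequences are shown first for the genes of the interferon response, since this list had 30 of its 40 members compared called higher, which is 75%. Interferons act through factors that bind the interferon-stimulated response element (ISRE), searched here on both strands as GAAA, then any 2 bases, then GAAA, in the 250 bases before each RefSeq start (GRCm38.p6). It was found in 978 of all 32851 promoters (2.98%) and in 13 of 25 promoters of the called interferon-stimulated genes (52%), close to the 19 of 40 (47.5%) of the whole list, called or not. Among the promoters of all genes compared the share was 2.42%. A match describes the letters only and is no proof of a site. The windows of 3 genes of that list and of B2m, the light chain of major histocompatibility complex (MHC) class I, are printed 5′ to 3′ with the ISRE letters in capitals.
Ifit1, chr19:34640639-34640888, + strand: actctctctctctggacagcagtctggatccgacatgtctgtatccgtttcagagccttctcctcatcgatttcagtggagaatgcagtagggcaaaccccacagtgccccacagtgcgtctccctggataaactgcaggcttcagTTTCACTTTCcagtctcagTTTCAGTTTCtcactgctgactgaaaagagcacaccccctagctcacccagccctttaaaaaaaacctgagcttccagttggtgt
Gbp2, chr3:142620413-142620662, + strand: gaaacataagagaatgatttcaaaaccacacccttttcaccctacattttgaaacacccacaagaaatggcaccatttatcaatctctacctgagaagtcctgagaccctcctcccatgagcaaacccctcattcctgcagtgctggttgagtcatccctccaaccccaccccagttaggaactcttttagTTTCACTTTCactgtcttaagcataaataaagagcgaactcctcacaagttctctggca
Tgtp1, chr11:48992247-48992496, - strand: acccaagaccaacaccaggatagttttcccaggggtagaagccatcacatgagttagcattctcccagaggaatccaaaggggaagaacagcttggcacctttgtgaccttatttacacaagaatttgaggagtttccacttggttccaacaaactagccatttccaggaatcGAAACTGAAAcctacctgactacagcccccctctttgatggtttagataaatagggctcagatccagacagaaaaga
B2m, chr2:122147437-122147686, + strand: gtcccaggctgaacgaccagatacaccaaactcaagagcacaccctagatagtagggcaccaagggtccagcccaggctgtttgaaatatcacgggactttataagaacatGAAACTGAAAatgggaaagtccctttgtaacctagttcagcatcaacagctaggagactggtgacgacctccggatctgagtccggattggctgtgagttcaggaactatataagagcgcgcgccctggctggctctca
Ifit1 held 2 matches, whose first bases lay 104 and 85 bases before the start. In Gbp2 the match began 59 bases, in Tgtp1 77 bases and in B2m 139 bases before it.

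The injury genes were much higher in AKI. Spp1, which encodes osteopontin, a secreted matrix and cytokine-like protein, was at 21.6 UMIs per 10000 in the control, 180 in AKI 1 and 217 in AKI 2. The difference was 8.34-fold (8.27 to 8.41) in AKI 1 and 10.0-fold (9.95 to 10.1) in AKI 2, and Spp1 had the highest AKI level of the injury genes named here. Cells with at least 1500 UMIs were also thinned to 1500. The 524 cells of the control, 236 of AKI 1 and 144 of AKI 2 with fewer were left out. This holds for all thinned shares of cells with a UMI given here and below. Of the thinned cells 68.2% of the control held a Spp1 UMI, against 95.6% in AKI 1 and 96.9% in AKI 2. The median per cell was 1, 14 and 20 UMIs. T lymphocyte barcodes, thinned alike, held a Spp1 UMI in 30.1%, 70.3% and 73.8%, so the share of cells with a UMI includes free RNA. Their mean was far lower, however, at 3.86 Spp1 UMIs per barcode in AKI 1 against 223 per epithelial cell.

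Lcn2, an iron-siderophore binding protein used as a urine marker of injury, was at 0.371, 11.9 and 9.72, a rise of 32.1-fold (30.3 to 34.2) and 26.2-fold (24.6 to 27.9). Havcr1, the phosphatidylserine receptor of injured PT cells, had 1 UMI in the control pool, 114 in AKI 1 and 236 in AKI 2, ratios of 356 (62.7 to 1.42e+04) and 893 (159 to 3.54e+04). Havcr1 thus remained at a low level, 0.112 and 0.279 UMIs per 10000. Timp1, an inhibitor of matrix proteases, was at 0.00814, 0.0929 and 0.124. Of the 35 injury and repair genes compared 16 were called higher and none lower, by a median log2 fold change of 1.32 and 1.03. S100a6 was higher in AKI 1 at 18.0 but not in AKI 2 at 6.07, against 5.14 in the control, and was not called. With at most 15% mitochondrial UMIs, 9 of the 35 were called.

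**Figure D2:**
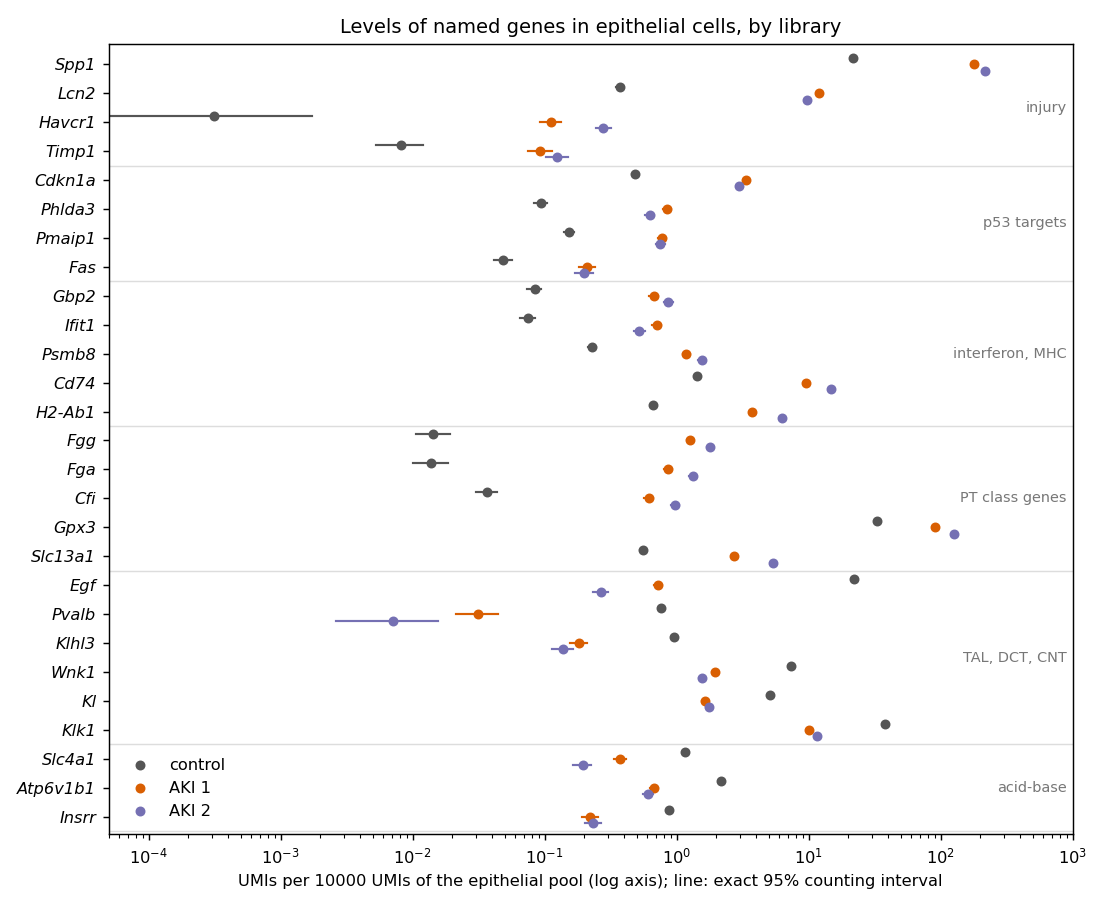
Levels (UMIs per 10000 UMIs of the epithelial pool, log axis) of named genes in the control, AKI 1 and AKI 2, with exact 95% counting intervals. For each gene shown both AKI libraries lie on the same side of the control, Egf and Pvalb far below it and Spp1, Lcn2 and Fgg far above.

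Among the 10 largest rises were the fibrinogen chains Fgg and Fga, which form the clot protein. They were at 0.0144 and 0.0138 in the control, at 1.27 and 0.866 in AKI 1 and at 1.78 and 1.32 in AKI 2. Fgg rose 88.2-fold (65.7 to 121) and 124-fold (92.3 to 170). Serpina10, an inhibitor of coagulation factors, was at 0.0275, 0.544 and 1.04. Cfi, the protease that cleaves complement C3b, was at 0.0366, 0.615 and 0.967, and rose 16.8-fold and 26.4-fold. Among the complement genes 8 of 13 were called higher and none lower. C4b rose from 0.00908 to 0.240 and 0.310, C2 from 0.0398 to 0.2 and 0.305, and Cfb, the protease of the alternative pathway, from 0.207 to 1.04 and 1.34. Outside this list Agt, the precursor of angiotensin, rose from 0.137 to 0.556 and 0.796. Cd59a, a membrane inhibitor of complement, was at 1.15, 0.754 and 0.610 and was not called. The largest ratio among genes with at least 0.5 UMIs per 10000 in AKI was that of Sprr2f, a small proline-rich protein of stressed epithelia, with 6 UMIs in the control against 578 and 427, or 301-fold (137 to 824) and 269-fold (123 to 738).

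The p53 target genes, which respond to DNA damage, had 9 of 28 members called higher and none lower, with medians of 0.81 and 0.69. Cdkn1a, the cell cycle inhibitor p21, was at 0.487, 3.33 and 2.98, a rise of 6.83-fold (6.43 to 7.26) and 6.12-fold (5.75 to 6.53). Phlda3, an inhibitor of Akt, was at 0.0933, 0.844 and 0.624, and Pmaip1, the pro-apoptotic protein Noxa, at 0.153, 0.776 and 0.755. After thinning, 4.33%, 20.6% and 21.2% of epithelial cells held a Cdkn1a UMI, against 6.35%, 17.3% and 16.7% of T lymphocyte barcodes, so these shares differ little from those of lymphocytes. The death receptor Fas was at 0.0488, 0.209 and 0.2, but T lymphocyte barcodes held nearly as many Fas UMIs per barcode (0.207 in AKI 1) as epithelial cells (0.260), and with the mean T lymphocyte barcode subtracted Fas was not called. Btg2, also of this list, was at 10.1, 10.8 and 10.1, and Gdf15 at 4.03, 8.73 and 7.29, and neither was called. No cell cycle gene was called among the 11 compared, and of the list Ccnd1 was at 2.84, 1.95 and 1.5.

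The interferon-stimulated genes lay above the control in both AKI libraries in 40 of 40 cases. Their median log2 fold changes were 1.61 and 1.67, against -0.02 and -0.06 over all genes compared. Gbp2, a guanylate-binding protein that attacks vacuoles of pathogens, was at 0.0839, 0.671 and 0.868, a rise of 8.00-fold (6.94 to 9.25) and 10.3-fold (8.98 to 11.9). Gbp6 was at 0.0357, 0.264 and 0.615 and differed by 1.22 on the log2 scale between the AKI libraries. Ifit1, which binds foreign RNA caps, was at 0.0748, 0.705 and 0.521. Tgtp1, an immunity-related GTPase with a near-identical neighbour so that reads can be split, was at 0.0141, 0.159 and 0.198. Irf1, a factor that drives such genes, was at 0.846, 1.39 and 1.22 and was not called. Lymphocytes express several of these genes strongly. Ifit1 had 3.01 UMIs per T lymphocyte barcode in AKI 1 against 0.875 per epithelial cell, whereas Gbp2 had 0.165 against 0.833. With the mean T lymphocyte barcode subtracted, which removes too much of any gene that T cells express, 18 genes of the list could still be compared and 15 were called higher, Gbp2 among them and Ifit1 not.

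Antigen presentation moved the same way. All 22 MHC class I genes compared lay above the control in both AKI libraries, with median log2 fold changes of 1.44 and 1.57, and 15 were called. Psmb8, a subunit of the immunoproteasome that cuts peptides for MHC class I, was at 0.230, 1.19 and 1.55, and Nlrc5, the transactivator of class I genes, at 0.00876, 0.0607 and 0.101. H2-Q7 was at 0.131, 0.906 and 1.08 and H2-Q6 at 0.0792, 0.443 and 0.476, but these are near-identical genes whose reads may be split. Calr and Pdia3, chaperones of class I loading, were at 5.02, 6.15 and 6.37 and at 2.94, 3.32 and 3.46, and were not called. Psmb8, Nlrc5, H2-Q6 and H2-Q7 had more UMIs per T lymphocyte barcode than per epithelial cell in both AKI libraries, and with that mean subtracted none of these 4 was called, while 7 of the 12 class I genes still compared were.

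All 8 MHC class II genes compared were called higher. Cd74, the invariant chain of class II, was at 1.43, 9.62 and 14.9, a rise of 6.73-fold (6.50 to 6.98) and 10.4-fold (10.1 to 10.8). H2-Ab1 was at 0.669, 3.73 and 6.33, H2-Aa at 0.470, 2.26 and 3.88, and H2-DMa, which loads peptides, at 0.0873, 0.417 and 0.690. Free class II RNA was also high in AKI, with 5.66 Cd74 UMIs per T lymphocyte barcode in AKI 1 and 8.53 in AKI 2 against 11.9 and 19.2 per epithelial cell. In the control T lymphocyte barcodes held more Cd74, 2.65 against 1.5 per epithelial cell. Cd74 was also set against macrophage markers. The epithelial pools held 30.4 Cd74 UMIs per UMI of Lyz2, the macrophage lysozyme, in the control, 21.2 in AKI 1 and 20.1 in AKI 2, against 10.2, 2.06 and 1.72 in the kept barcodes without Cdh16 or Epcam. Per UMI of all macrophage markers but Apoe, Cd74 was at 4.18, 5.53 and 4.73 in the epithelial pools and at 5.77, 1.48 and 1.29 in the other barcodes, so in the control this ratio was lower in epithelium. Lyz2 itself was among the 10 largest rises, at 0.0470, 0.454 and 0.742, but had 4.82 UMIs per T lymphocyte barcode against 0.954 per epithelial cell in AKI 2. Plac8, a lysosomal protein listed here as a monocyte marker, was at 0.0989, 1.02 and 2.03, and its 2.61 UMIs per epithelial cell in AKI 2 exceeded the 0.789 of T lymphocyte barcodes.

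Of 24 chemokines and cytokines compared 12 were called higher and 1 lower. Cxcl1, a neutrophil attractant, was at 0.309, 2.72 and 1.72. Lif, a cytokine of the interleukin 6 family, was at 0.0157, 0.116 and 0.0876. Cxcl5 had 3 UMIs in the control, 379 in AKI 1 and 11 in AKI 2, and without the 5% deepest cells of each library it was not called. Ccl7 was at 0.00657, 0.114 and 0.146, but had more UMIs per T lymphocyte barcode (0.299 and 0.446) than per epithelial cell (0.142 and 0.187), and its sign turned with that mean subtracted. Mif, a constitutive cytokine, was at 6.41, 5.83 and 6.12. Of 17 NF-kB targets 4 were called higher, among them Icam1, the leukocyte adhesion molecule, at 0.299, 1.09 and 0.943. Bcl3 was at 0.0801, 0.252 and 0.231, and Nfkbia at 4.02, 7.86 and 6.17 was not called.

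**Figure D3:**
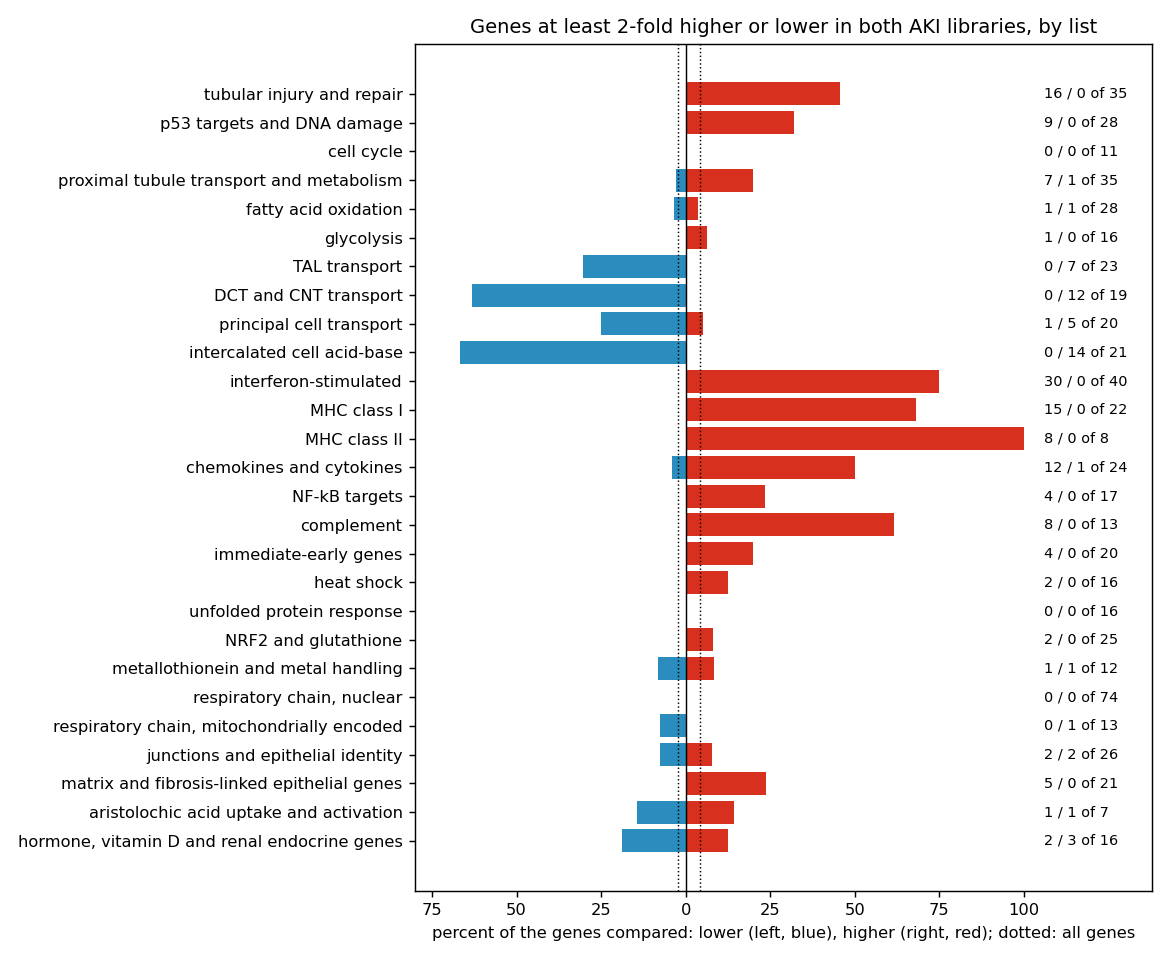
Percent of the genes compared in each of 27 lists that were at least 2-fold higher (red, right) or lower (blue, left) in both AKI libraries, with counts given as higher / lower of compared; dotted lines mark the 4.28% and 2.26% of all genes. Interferon, MHC, complement and injury lists stand to the right, and the lists of TAL, DCT and CNT, principal and intercalated cells to the left.

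The falls were led by Egf, the growth factor that the TAL and DCT release into the urine. Egf was at 22.1 UMIs per 10000 in the control, 0.723 in AKI 1 and 0.266 in AKI 2, which is 30.6-fold and 83.1-fold lower. Free Egf RNA was high in the control, with 1.38 UMIs per T lymphocyte barcode, and low in AKI, with 0.0368 and 0.0120. Pvalb, the calcium-binding parvalbumin of the early DCT, had 2448 UMIs in the control, 32 in AKI 1 and 6 in AKI 2, and was 24.5-fold and 108-fold lower.

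Of 19 genes of DCT and CNT transport 12 were called lower and none higher, with median log2 fold changes of -1.39 and -1.49. Klhl3, the ubiquitin ligase adaptor that degrades WNK kinases, was at 0.957, 0.181 and 0.137. Wnk4 was at 1.51, 0.764 and 0.603 and was not called. Kl, the co-receptor for the phosphate hormone FGF23, was at 5.15, 1.63 and 1.77. Klk1, tissue kallikrein of the CNT, was at 37.8, 10.1 and 11.6. Slc16a7, a lactate and pyruvate carrier, was at 2.74, 0.858 and 0.470. Of 23 genes of TAL transport 7 were called lower and none higher, Egf among them, and with at most 15% mitochondrial UMIs 2 were lower and 3 higher. Wnk1, a kinase that controls salt transport and is in this list, was at 7.30, 1.95 and 1.57. Casr, the calcium-sensing receptor, was at 0.267, 0.0890 and 0.0663, and Bsnd, a chloride channel subunit, at 0.846, 0.243 and 0.184. Atp1b1 and Fxyd2, subunits of the sodium pump, were at 30.1, 27.7 and 23.8 and at 35.5, 32.0 and 28.3, and were not called.

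In the list of intercalated cell acid-base genes 14 of 21 were called lower and none higher. Slc4a1, the chloride-bicarbonate exchanger of acid-secreting cells, was at 1.16, 0.372 and 0.194. Atp6v1b1, a subunit of the proton pump, was at 2.17, 0.676 and 0.607, Oxgr1, the oxoglutarate receptor, at 1.05, 0.331 and 0.2, and Insrr, an alkali sensor, at 0.880, 0.221 and 0.232. Car2, the cytosolic carbonic anhydrase, was at 11, 8.38 and 7.77 and was not called. Of 20 genes of principal cell transport 5 were called lower in the whole pool, but 1 of these 5 was 2-fold lower in both AKI libraries within the PC class and none of the 20 was called lower at the class shares of the control. Avpr2 and other genes of this list are themselves markers by which cells joined the PC class, so both counts were partly set by the class rule. Avpr2, the vasopressin receptor, was at 0.824, 0.383 and 0.315 and Scnn1a, a subunit of the sodium channel, at 2.49, 1.07 and 0.770, while the water channel Aqp2 was at 11.1, 12.5 and 9.29. Nr3c2, the mineralocorticoid receptor, was at 0.368, 0.164 and 0.130. The kidney transcription factors Lhx1 and Sim1 were at 0.729, 0.216 and 0.214 and at 0.630, 0.254 and 0.218.

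Among the 10 largest falls were also Lpl (lipoprotein lipase), at 1.30, 0.180 and 0.109, Sfrp1, an inhibitor of Wnt signals, at 3.37, 0.967 and 0.316, Pgam2, a muscle-type glycolytic enzyme, at 2.08, 0.568 and 0.417, and Abca13, a transporter, at 1.75, 0.405 and 0.210. Dcn, decorin, at 0.604, 0.120 and 0.104, belongs to the fibroblast markers, whose sum fell alongside it, and the part of these cells in its value was not tested.

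PT genes went mainly the other way. Of 35 compared 7 were called higher and 1 lower, by medians of 0.51 and 0.99. The balance changed under other settings. With class levels averaged at the control's shares 3 were called higher and 5 lower, with at most 15% mitochondrial UMIs 4 and 4, and without cells with any immune marker UMI 1 and 2. Slc13a1, the sulfate transporter, was at 0.553, 2.73 and 5.37, Slc13a3, the dicarboxylate transporter, at 0.0538, 0.178 and 0.284, and Cyp2e1, a cytochrome that oxidizes small molecules, at 0.110, 0.838 and 1.39. Slc34a1, the phosphate transporter, at 4.96, 7.98 and 11.4 was not called. Gpx3, the secreted glutathione peroxidase, was at 32.8, 91.5 and 127, or 2.79-fold and 3.86-fold higher. Kap, the androgen-regulated kidney protein, was lower at 1.65, 0.487 and 0.0201, and differed by 4.60 on the log2 scale between the AKI libraries. Of 7 genes compared for uptake and activation of aristolochic acid, Abcg2, an efflux transporter, was higher at 0.480, 1.27 and 1.62, Sult1a1, a sulfotransferase, was lower at 0.191, 0.0646 and 0.0628, and the organic anion transporter Slc22a8 was at 0.244, 0.229 and 0.185.

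Of the 74 nuclear genes of the respiratory chain 72 lay below the control in both AKI libraries, and none was called at 2-fold. Their median log2 fold changes were -0.36 and -0.41, against -0.02 and -0.06 over all genes compared. Cox8a was at 25.7, 23.8 and 21.1. Ppargc1a, the coactivator of mitochondrial genes, was lower at 1.80, 0.780 and 0.714. Of the 13 mitochondrially encoded genes all were below the control and mt-Nd4l, at 21.1, 10.2 and 9.40, was called, but not when mitochondrial UMIs were left out of the total. Cyp4a10, a fatty acid hydroxylase, was higher at 0.0275, 0.0959 and 0.186. Hk2, which starts glycolysis, was higher at 0.0423, 0.256 and 0.131, whereas Gapdh was at 12.1, 12.9 and 13.2.

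Among stress genes, 4 of 20 immediate-early genes were called. Fosl1 was at 0.0322, 0.250 and 0.116 and Klf4 at 1.96, 5.92 and 5.10, whereas Fos at 29.7, 28.1 and 23.1 and Jun at 23.5, 25.6 and 24.4, which also respond to tissue dissociation, were not. Of 16 heat shock genes Hspb1 (2.44, 6.82 and 6.08) and Hspb8 (0.100, 0.318 and 0.380) were called, and none of 16 genes of the unfolded protein response was. Hmox1, heme oxygenase, was at 0.214, 0.647 and 0.606, and Tfrc, the transferrin receptor, was lower at 0.599, 0.215 and 0.165. Of 21 matrix genes 5 were higher, among them Adamts1, a matrix protease, at 0.733, 3.11 and 2.73, and Pdgfb, a growth factor for pericytes, at 0.232, 0.757 and 0.610. Cldn3, a tight junction protein, was at 0.469, 1.29 and 1.26, and Cyp24a1, which inactivates vitamin D, at 0.0736, 0.272 and 0.337.

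To see whether these differences held within segments, cells were assigned to marker classes. A cell joined the class whose markers most exceeded a limit, set for all libraries at 5 times the highest mean per T lymphocyte barcode and at no less than 5 UMIs. The classes are ranges of a count and not types. In the control 16.1% of cells lay within 2-fold of the limit, with 19.9% and 18.0% in AKI, and 46.6%, 32.4% and 32.9% passed more than 1 limit. Between 67.5% and 68.8% of unclassed cells had under 1500 UMIs. Leading genes beyond the markers were Akr1c21 and Spink1 in the PT class, Egf and Slc5a1 in the TAL class, Aqp4 and Btc in the PC class, Ifit3 and Ankrd1, an interferon and a stress gene, in the thin limb class, and the chemokine Cxcl5 in the DCT class. Klk1, Slc4a1, Atp6v1b1, Pvalb, Cyp2e1 and Kap are among the class markers themselves. Classes with under 15 cells in a library were not compared.

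The PT class held 17.3% (15.9 to 18.7) of the epithelial cells of the control, 19.3% (16.7 to 22.2) of AKI 1 and 27.5% (24.2 to 31.1) of AKI 2. In AKI 1 its share of cells could not be told from the control within counting error. Its share of the pool's UMIs, which weights the pooled levels, was 14.99% in the control, 26.89% in AKI 1 and 41.09% in AKI 2. That UMI share was 20.66%, 10.99% and 11.72% for the IC class and 14.07%, 14.93% and 10.14% for the TAL class. Of the cells, the CNT class held 6.64% (5.78 to 7.59), 2.06% (1.21 to 3.28) and 3.50% (2.23 to 5.21). The DCT class held 9.54%, 5.34% and 4.72% of them, and the PC class 20.5%, 14.1% and 12.9%. The TAL class held 13.8%, 11.7% and 8.98%, the IC class 11.7%, 9.10% and 8.37%, and the thin limb class 2.47%, 4.25% and 6.09%. Unclassed cells were 16.3% (15 to 17.7) in the control and 31.9% (28.7 to 35.2) and 26.3% (23 to 29.9) in AKI. Since some class markers were called lower, cell numbers and levels cannot be told apart in these shares.

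**Figure D4:**
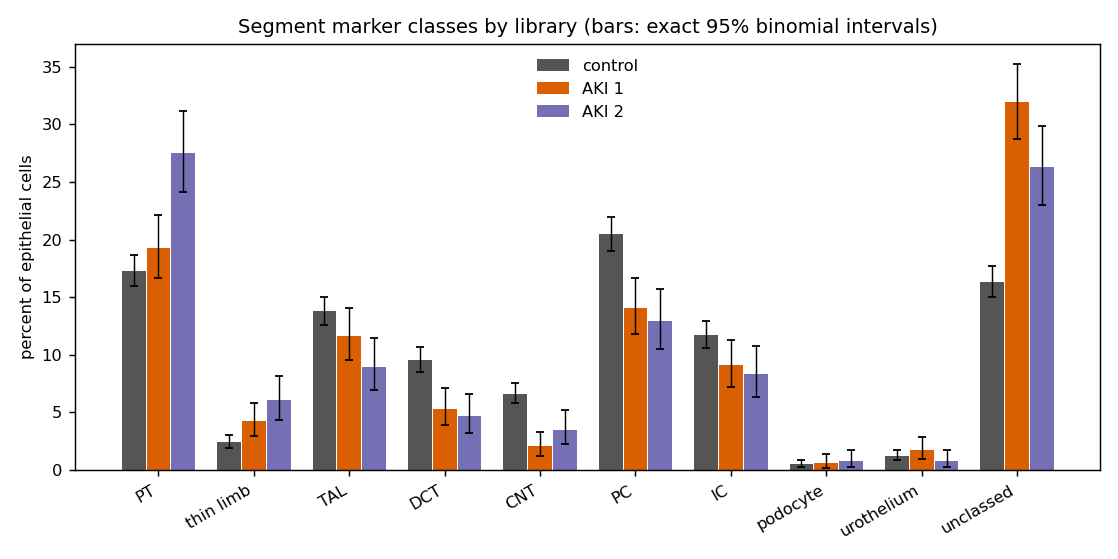
Share of the epithelial cells (percent, y axis) in each segment marker class in the control, AKI 1 and AKI 2, with exact 95% binomial intervals as error bars. The CNT, DCT and PC classes are smaller in both AKI libraries, and unclassed cells make up a larger share there.

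Spp1 was higher in AKI in every class compared. In the TAL class it was at 29.9, 351 and 437, in the DCT class at 14.8, 261 and 289, in the PT class at 15.3, 206 and 251, and in the PC class at 11.9, 80.8 and 79.5. Lcn2 followed another order. It was at 0.0757, 33.5 and 34.9 in the TAL class, at 0.0116, 33.7 and 8.52 in the DCT class and at 1.29, 19.8 and 30.5 in the PC class, but at 0.0125, 0.324 and 0.107 in the PT class. Havcr1 had 0 UMIs in the control, 29 in AKI 1 and 195 in AKI 2 in the PT class, and 1, 52 and 11 in the thin limb class, so the class with most Havcr1 UMIs differed between the AKI libraries. Sprr2f was nearly all in the PC class, at 466 of 578 UMIs in AKI 1 and 386 of 427 in AKI 2. Fgg was highest in the PT class, at 0.0815, 3.19 and 3.84, and Cfi likewise at 0.127, 1.98 and 2.15. Of the 16 called injury genes, 12 lay above the control in both AKI libraries in the PT class, and 6 did so by 2-fold. By 2-fold in both there were 10 in the thin limb, 11 in the TAL, 15 in the DCT and 7 in the CNT class. The PC class had 6, the IC class 10 and unclassed cells 9.

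The 9 called p53 targets lay above the control in both AKI libraries in each class for all members with at least 10 UMIs there. Cdkn1a was highest in the thin limb class, at 3.32, 13.2 and 11.3, and was at 0.209, 2.11 and 2.74 in the PT class and 0.107, 2.73 and 1.80 in the TAL class. Of the 30 called interferon-stimulated genes, 25 were at least 2-fold higher in both AKI libraries in the PT class, 14 in the thin limb class, 18 in the TAL class, 23 in the DCT class, 12 in the CNT class, 26 in the PC class, 30 in the IC class and 9 in unclassed cells. Of all genes compared within a class, between 2.32% (PC) and 8.00% (DCT) were higher by the same rule. That share is over genes not selected beforehand. Called genes were chosen for 2-fold differences in the pool of these same cells. Their counts within classes, here and elsewhere, were therefore partly set in advance. Of the 449 genes called higher in the pool, between 76 (CNT) and 141 (DCT) were also higher within a class. How many of the 449 were compared in each class is not given. Psmb8 was at 0.221, 1.47 and 1.96 in the PT class and at 0.0576, 0.534 and 0.667 in the IC class.

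In the PT class Cd74 was at 3.17, 27.8 and 32.4 and H2-Ab1 at 1.51, 10.9 and 13.5, and all 8 class II genes were at least 2-fold higher. After thinning to 1500 UMIs, 12.3% (9.52 to 15.5) of PT class cells of the control held a Cd74 UMI, against 81.8% (74.6 to 87.6) in AKI 1 and 90.4% (85.1 to 94.3) in AKI 2. T lymphocyte barcodes held one in 11.9%, 36.4% and 42.3%. In the TAL class the shares were 5.18%, 11.2% and 17.9% and in the PC class 4.10%, 16.2% and 21.8%, all below those of the T lymphocyte barcodes of the same library, and are not read as expression. The part of free RNA in them was not tested. In the PT class the summed macrophage markers without Apoe were at 0.583, 2.44 and 3.92, and B cell markers at 0.246, 0.0691 and 0.0403. In unclassed cells Cd74 was at 18.0, 12.0 and 18.0 UMIs per 10000, while the thinned share of cells with a Cd74 UMI was 32.9%, 46.3% and 63.0%. Only 161, 82 and 54 of the 496, 263 and 173 unclassed cells entered these shares. Cells with any immune marker UMI could be left out only at a high price, since 1996 cells of the control but 112 and 56 of AKI remained, and in these all 7 class II genes compared were called higher. So were 18 of 38 interferon-stimulated genes, 10 of 22 class I genes, 6 of 29 p53 targets and 9 of 33 injury genes. Over all genes 268 of 10417 were called higher in that setting. The AKI pools then held 448185 and 187991 UMIs, against 16267300 in the control. With 0 UMIs set to 3, a gene at 0 in 1 AKI library can pass 2-fold there.

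**Figure D5:**
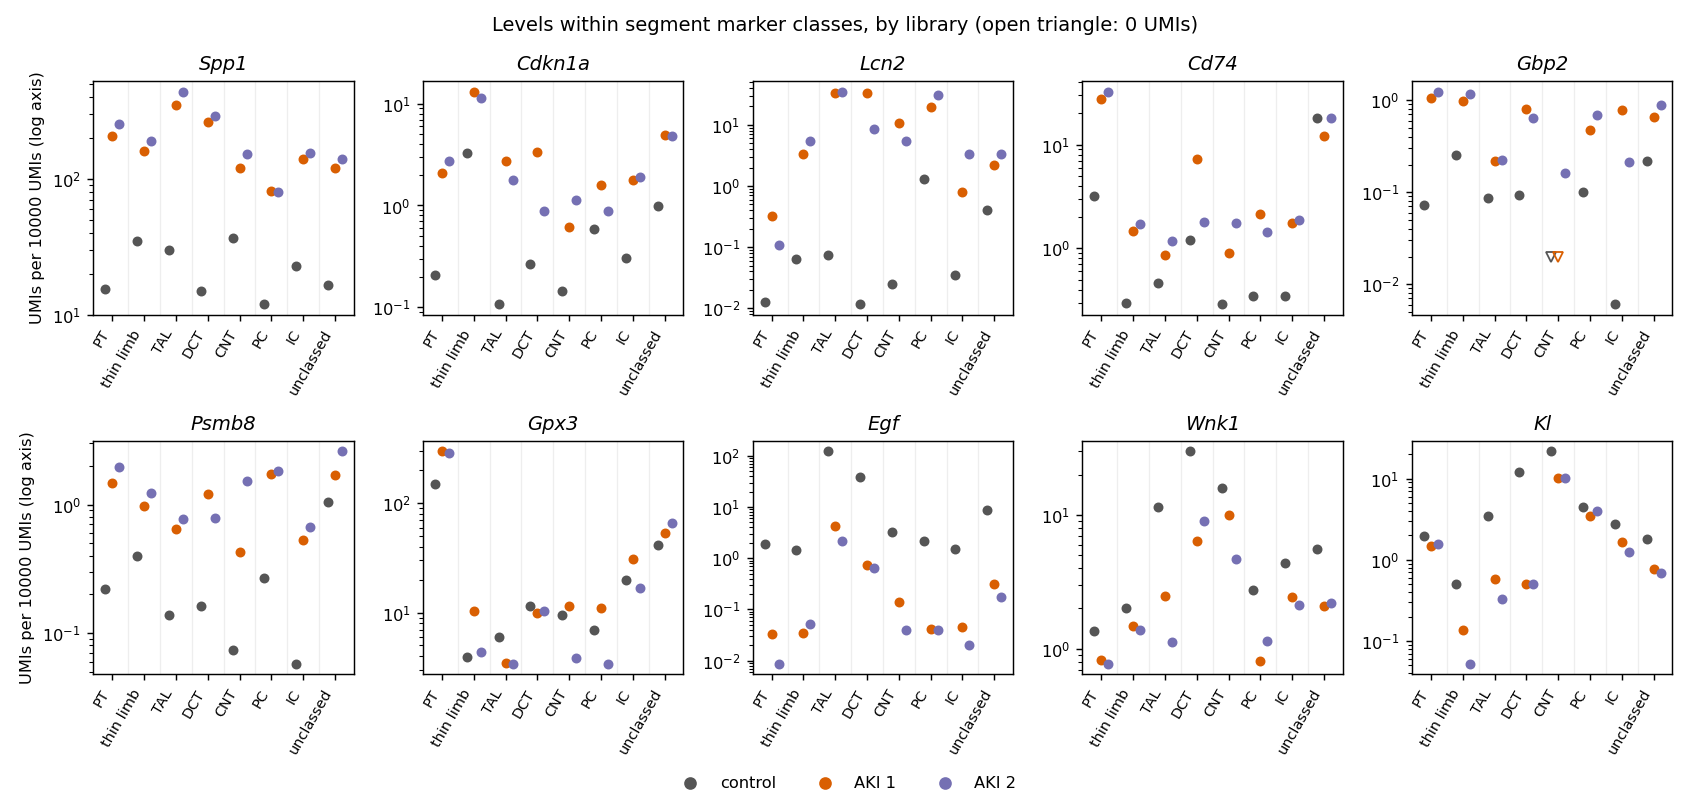
Levels (UMIs per 10000 UMIs of a class, log axis) of 10 genes within segment marker classes in the control, AKI 1 and AKI 2; open triangles are 0 UMIs. Spp1 is higher in AKI in every class, Cd74 reaches 27.8 and 32.4 in the PT class, and Egf is lower in every class.

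Egf fell within its own segments. It was at 123, 4.19 and 2.15 in the TAL class and at 38.2, 0.739 and 0.634 in the DCT class. Wnk1 was at 29.9, 6.39 and 8.96 in the DCT class and at 11.4, 2.50 and 1.13 in the TAL class. Kl was at 12.1, 0.497 and 0.507 in the DCT class and at 21.8, 10.3 and 10.2 in the CNT class, but at 1.98, 1.48 and 1.54 in the PT class. Klhl3 was at 6.21, 0.639 and 0.982 in the DCT class, and Tfrc at 2.46, 0.469 and 0.855 there.

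Other falls were much smaller within the marker class. The class limits use members of these lists, among them Klk1, Slc4a1 and Atp6v1b1, so a cell that lost them can leave its class. Falls of such lists within a class, and averages at the class shares of the control, were therefore partly set by the class rule. How large that part is was not tested. Klk1, itself a marker of the CNT class, was at 277, 200 and 228 in that class. Of the 14 called intercalated cell genes, all lay below the control in the IC class but none by 2-fold in both AKI libraries, with Atp6v1b1, also a marker of that class, at 5.90, 3.94 and 3.19. Slc4a1 was at 4.06, 2.81 and 0.818 there and so differed mainly in AKI 2. When levels within classes were averaged with the class shares of the control, 1 intercalated cell gene, 6 of 19 DCT and CNT genes and 0 of 20 principal cell genes were called lower, against 14, 12 and 5 before, 30 interferon-stimulated genes were called higher, and the count of all genes called lower went from 237 to 131. Gpx3 was also not called then. It was at 151, 300.0 and 292 in the PT class and at 6.04, 3.43 and 3.40 in the TAL class. A mitochondrial limit of 15% left 1348, 592 and 426 cells and 283 genes called higher and 186 lower, with 3 intercalated cell genes lower. Klk1 and Atp6v1b1 were not called at that limit, and Egf still was.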

How the data were processed

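Droplet single-cell RNA-seq (Chromium Single Cell 3′) of mouse kidney gave 1 control, 2 AKI and 2 CKD libraries, of which the control and AKI were used. What the authors deposited are raw UMI counts, one matrix per library, with no normalization. Per the labels, Cell Ranger 7.2.0 with STAR and GRCm39 was used, whereas the headers of the AKI files name Cell Ranger 5.0.0 and the gene list of the control names mm10. All libraries list the same genes. The study's CellBender and doublet removal are not in these counts and were not repeated, and no doublets were removed. This can leave free RNA and mixed barcodes in the values.

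Counts of the selected cells were summed per library and scaled to 10000 UMIs, and 0 UMIs were set to 3 for folds. Genes with a mean level of at least 0.05 over the 3 libraries were compared. Intervals are exact Poisson, binomial or conditional binomial (95%). PCR and droplet effects are not covered. The scripts were tested on simulated data with known changes. The members and lists were chosen with earlier results of these data known. The 27 gene lists were written by hand. Genes named were the 10 largest rises and falls with at least 0.5 UMIs per 10000 in the higher group, and per list up to 4 called and 2 not called. T lymphocyte barcodes had at least 2 Cd3 UMIs. The ISRE was 1 of 8 motifs counted. Python 3.11.15, numpy 2.4.6, scipy 1.17.1, pandas 2.3.3, matplotlib 3.10.9 and, for TMM factors, edgeR 4.0.16 in R 4.3.3 were used. Alternatives covered scaling, filters, folds, cell selection, single AKI libraries, class composition and, chosen after seeing the data, free RNA and immune markers. Results for some genes are not reported here.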

Additional observations from a re-analysis of the deposited data

Results flagged for a closer look

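For 3 of the named genes both AKI libraries lay at least 2-fold above the control in the epithelial pool and at least 2-fold below it in the kept barcodes without Cdh16 or Epcam. The difference of the mean log2 fold changes, epithelium against those barcodes, was 3.01 for Gpx3, 2.87 for Abcg2 and 2.68 for Pdgfb, and it was not tested. None of the 3 was called higher in epithelium at the class shares of the control, nor without cells with any immune marker UMI. In the barcodes without Cdh16 or Epcam, Gpx3 was 2.40-fold and 2.51-fold lower in AKI 1 and AKI 2, Abcg2 2.33-fold and 2.56-fold lower, and Pdgfb 2.01-fold and 2.39-fold lower. Summed endothelial markers in the epithelial pool were at 0.655 in the control and 0.293 and 0.281 in AKI. The barcodes without Cdh16 or Epcam also differed in make-up between libraries. There, endothelial markers summed to 29.1 in the control, 7.05 in AKI 1 and 5.67 in AKI 2. T and NK cell markers summed to 21.0, 78.6 and 72.5, and the PT genes compared to 42.6, 8.52 and 7.62. The part of these differences in the values of the 3 genes was not tested.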

How the results depend on the processing

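No paired analysis was possible because the control has 1 library and so shares fewer than 2 replicate numbers with AKI. The numbers of genes called higher (449) and lower (237) stayed within 1.5 times the main counts when mitochondrial UMIs were left out of the total, with TMM or median-of-ratios factors, and at a minimum of 2 marker UMIs or 1000 UMIs per cell. Weighting each cell equally gave 640 higher and 198 lower, so 76.4% instead of 65.5% of called genes were higher. Of these, 337 were among the 449 and 146 among the 237. Genes called higher numbered 3477 with no filter, 245 at a mean level of at least 0.2, 914 at 1.5-fold, 175 at 3-fold and 283 with at most 15% mitochondrial UMIs, of which 223 were among the 449. Genes called lower numbered 691, 110, 721 and 56 under the first 4 of these, and 131 with the class composition of the control, of which 98 were among the 237. That composition gave 329 higher, of which 263 were among the 449. With at most 15% mitochondrial UMIs 186 were lower, of which 96 were among the 237. The 3477 is not a count of rises. The AKI pools are smaller than that of the control, and 0 UMIs were set to 3. With no filter, a gene at 0 UMIs in AKI and few in the control can thus be called higher. With 1 AKI library left out the counts ranged from 582 to 638 higher and from 271 to 447 lower, and the 447 came from AKI 2 alone. The higher count without cells with any immune marker UMI, chosen after seeing the data, was 268, of which 161 were among the 449, and of the 240 lower 89 were among the 237. Of 89 named genes called, 21 lost the call with at most 15% mitochondrial UMIs 20 with the class composition of the control, 25 at 3-fold and 31 without cells with any immune marker UMI, among these Havcr1, Sprr2f, Gpx3, Cyp2e1, Ifit1 and Timp1. Ccl7 turned to -1.03 on the log2 scale with the mean T lymphocyte barcode subtracted. With cells thinned to 1500 UMIs, the AKI mean minus the control was -3.26 percentage points for the DCT class (main value -4.51), -7.05 for CNT (-3.86), -4.72 for PC (-6.95) and -2.33 for IC (-3.01), and the signs turned to -0.135 for podocyte and 0.209 for urothelium markers. Causes were not tested. Levels under 0.05 UMIs per 10000 rest on few UMIs, and differences between mice in the control cannot be estimated.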

Other observations

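A few further genes with large differences were chosen after their values were seen. Clu, the extracellular chaperone clusterin, was at 4.97 UMIs per 10000 in the control, 24.1 in AKI 1 and 30.4 in AKI 2. C3, the central complement protein, was at 0.682, 3.30 and 4.36, and Pigr, which carries antibodies across epithelia, at 0.306, 2.21 and 1.64. The glucuronosyltransferase Ugt2b37 was at 0.250, 1.58 and 3.96. Lower were S100g, the calcium-binding calbindin of the distal nephron, at 63.1, 19.5 and 22.5, Slc12a3, the thiazide-sensitive salt carrier, at 7.54, 2.41 and 1.55, and Rhcg, an ammonia channel, at 3.93, 1.45 and 1.04.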
